A study of Mus musculus with 18 samples.

Results

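The response to 4-hydroxytamoxifen (OHT) was measured in a mouse embryonic stem cell (ESC) line whose only lasting source of HDAC1 or HDAC2 after treatment was the surface mutant HDAC1-E63R. The comparison took every library labelled E63R, 3 from untreated cells and 3 from OHT-treated cells, which is 6 of the 18 RNA-seq libraries of the series, and tested all genes with enough reads. The parental cells were E14TG2a ESCs with loxP sites in both alleles of Hdac1 and Hdac2 (Hdac1/2 lox/lox), grown in medium with serum and leukaemia inhibitory factor (LIF), in which OHT induces the deletion of both genes. Flag-tagged HDAC1-E63R was added beforehand by piggyBac transposition as a stable transgene. Untreated E63R cells therefore held the mutant beside endogenous HDAC1 and HDAC2, and treated cells, exposed to 1 µM OHT and collected at 5 days per the labels, were left with the mutant. Parallel lines carrying HDAC1-WT or HDAC1-Y48E, 6 libraries each, received the same treatment and serve here only as comparisons. The mutation and the OHT exposure act on a single stable line per protein. The labels do not say whether replicates came from separate cultures, but the paper calls them biological replicates. The p-values measure the spread between replicate libraries, estimated over all 18 libraries of the series and not over the E63R libraries alone. That spread may include technical differences.

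HDAC1 and HDAC2 are histone deacetylases that work inside corepressor complexes: those built on SIN3 and on RERE, and NuRD, MiDAC, CoREST and the MIER family. Removal of acetyl groups from histone tails is linked to lower transcription, and in ESCs these complexes restrain lineage genes and 2-cell-stage genes while also supporting the expression of pluripotency genes. The E63R change lies on the surface of HDAC1 and was made to disturb the docking of partner proteins, so the question behind the comparison is what a cell transcribes when its HDAC1 assembles with partners in altered proportions.

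Gene counts per E63R library ranged from 9075739 to 11454638. The untreated libraries had counts in 21405, 21352 and 19294 genes (replicates 1, 2 and 3), and the OHT libraries in 22997, 22736 and 22850. Untreated replicate 3 therefore detected the fewest genes of the 6 and also had the largest share of entries that did not align, 3.53% against 2.21% to 2.84% in the other 5.

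That library stood apart from its own group. Over 12636 genes with a mean of at least 5 counts per 1000000 (CPM) in the 18 libraries, each library was set against the mean of the other 2 of its group. Untreated replicate 3 had a median absolute log2 deviation of 0.464. Untreated replicates 1 and 2 had 0.236 and 0.291, values that include replicate 3 among their references, and the 15 libraries of the other groups, OHT-treated E63R included, had 0.109 to 0.155. In replicate 3, 671 genes were over 2-fold above and 1074 over 2-fold below its companions, 13.8% of the genes compared, against 17 to 108 genes for the libraries of the other 5 groups. A chi-square statistic per degree of freedom, which is near 1 where libraries differ by sampling alone, was 5.35 between untreated replicates 1 and 2 but 60.4 and 67.1 for the pairs with replicate 3, and 3.38 to 4.06 among the OHT libraries. No pair of libraries agreed within sampling noise, so all 6 were counted.

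The deviation of untreated replicate 3 followed transcript length. With genes split into 5 bins of exon length, from the shortest (39 to 2224 bases) to the longest (7444 to 123179 bases), its median log2 deviation was 0.59, 0.24, 0.01, -0.25 and -0.56. The 76 ribosomal protein genes, which encode short abundant mRNAs, lay 1.05 above the other untreated libraries on the log2 scale, and the 286 processed pseudogenes compared, mostly short copies of such mRNAs, lay 0.76 above. Antisense transcripts (448 genes) lay at -0.24 and unspliced candidate transcripts of the TEC class (89 genes) at -0.57. The single largest excess was Gm6139, a processed pseudogene, with 2.50 and 2.82 CPM in untreated replicates 1 and 2 against 73.4 CPM in replicate 3. The largest deficit was the antisense transcript A630072L19Rik, at 9.98 and 10.4 CPM against 0 CPM. Through this library the OHT effect itself leaned on length: the median log2 fold change over the same bins ran from -0.19 to 0.08 with all libraries and from -0.01 to -0.07 without replicate 3. Values without it stand beside the results below that rest on it.

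**Figure D1:**
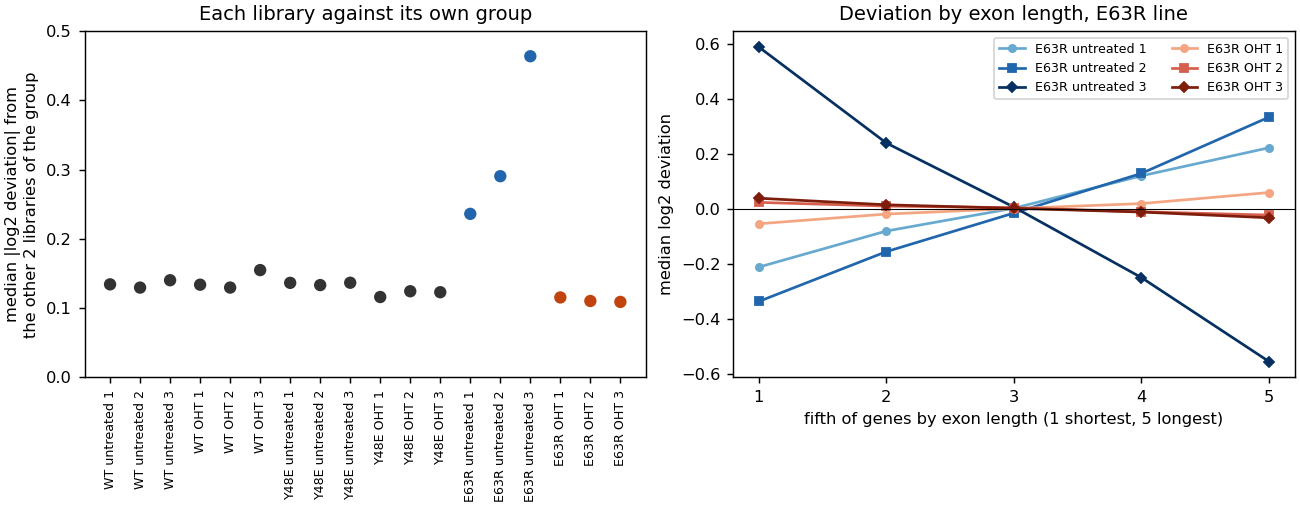
Left, the median absolute log2 deviation of each of the 18 libraries from the other 2 of its group, over 12636 genes. E63R untreated replicate 3 is the highest at 0.464. Right, the median log2 deviation of the 6 E63R libraries in 5 bins of exon length, where replicate 3 falls from 0.59 for the shortest genes to -0.56 for the longest.

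ESC markers were well read before and after OHT, though some fell and Klf4 rose, as given with the naive genes below. All 9 ESC markers fixed for the check (Pou5f1, Nanog, Sox2, Zfp42, Esrrb, Klf4, Dppa5a, Tdgf1 and Utf1) were tested, and their summed level was 5463 to 7377 CPM untreated and 5106 to 5443 CPM after OHT. Marker CPM in this paragraph lack the TMM scaling used for other levels. The TMM factors were 0.960, 0.977 and 0.814 for untreated replicates 1, 2 and 3 and 1.05 to 1.06 for the OHT libraries. Scaled levels are therefore higher untreated and lower after OHT. The 26 naive genes below include these 9. Their scaled sums were 8179, 7535 and 10997 CPM untreated and 6427, 6624 and 6729 CPM after OHT. Trophoblast markers (5 of 5 tested) summed to 9.37 to 13.1 CPM untreated and 47.4 to 57.3 CPM after OHT, fibroblast and feeder markers (4 of 9 tested) to 22.8 to 40.3 and 64.6 to 72.2 CPM, neural markers (3 of 4 tested) to 48.7 to 55.1 and 89.7 to 95.6 CPM, primitive endoderm markers (4 of 4 tested) to 8.56 to 13.3 and 11.1 to 14.1 CPM, and endothelial and blood markers (4 of 5 tested) to 73.1 to 122 and 110 to 130 CPM. The fibroblast marker Dcn was at or under 3 counts in all 6 libraries and the neural marker Neurog2 at 0 in all 6. The neural sum rose through Tubb3, at 29.0 to 37.7 CPM untreated and 76.0 to 82.5 CPM after OHT. Sox1 was at 7.16 to 11.1 and then 4.37 to 6.13 CPM, and Pax6 at 8.19 to 9.66 and then 8.23 to 9.74 CPM. Pecam1 made up most of the endothelial and blood sum, with 69.5 to 118 and then 98.3 to 118 CPM. In bulk RNA, more cells of a type and more RNA per cell cannot be told apart, and the part of these markers in the results below was not tested.

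Hdac1 read 110, 94.9 and 110 CPM in the untreated libraries and 112, 123 and 131 CPM after OHT, and Hdac2 169, 152 and 210 CPM and then 150, 152 and 158 CPM. Neither passed the test (log2 fold change 0.22, SE 0.09, adjusted p = 0.0886, and -0.21, SE 0.11, adjusted p = 0.194). These whole-gene counts pool the transgene, the floxed alleles and any transcript left after excision, and a processed copy of Hdac1 shares 96.3% of 1450 aligned bases with it, so they do not measure the deletion.

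OHT changed more genes upward than downward in E63R cells. Changes are given as log2 fold changes, OHT against untreated, with the standard error (SE) of the fit and edgeR's adjusted p, and levels as CPM in untreated replicates 1, 2 and 3 and then OHT replicates 1, 2 and 3. Of 18791 genes tested, 890 rose (4.74%) and 221 fell (1.18%) at an adjusted p under 0.01 and more than a 2-fold change, the limits used for a differentially expressed gene (DEG). The median rise among the first was 1.83 on the log2 scale and the median change among the second was -1.24, against a median of 0.03 over all genes and a median size of 0.40. By adjusted p alone the directions were nearly even, with 1407 genes higher (7.49%) and 1281 lower (6.82%). These shares are the background for the list counts below, and list members were not matched to all genes by level. Values of the 3 OHT libraries did not overlap those of the 3 untreated libraries in 887 of the 890 risen and 220 of the 221 fallen genes. That largely follows from selecting genes by p and fold change in the same libraries. The share over all genes tested was not computed, so the count is no separate support.

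Untreated replicate 3 carried part of these calls. Without it 919 genes rose and 200 fell among 19503 tested. Of the original calls 733 of the 890 (82.4%) and 138 of the 221 (62.4%) remained, and all 1111 kept their sign. The 157 risen genes that lost the call had longer exons (median 4991 bases) than the risen genes that kept it (3876 bases), and the 83 fallen genes that lost it had shorter ones (1743 against 3176 bases), which is the direction of the length trend of that library. When the length trend was removed by a fitted offset, 727 genes rose and 558 fell, so that 56.6% of the DEGs were higher in place of 80.1%. That correction also moved the median of all genes from 0.03 to -0.18. Rises lost and falls gained under it, here and below, therefore include a general downward shift. Without untreated replicate 2 the fallen genes numbered 355.

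Risen genes were mostly little read in untreated cells. With genes ranked by mean untreated CPM, a read number that is not per length, the 5 bins from lowest to highest held 320, 344, 185, 35 and 6 of the risen DEGs and 1, 23, 73, 48 and 76 of the fallen. This ranking uses untreated values that also enter the fold change. That favours rises in low bins and falls in high bins, so the bins are a description. There were 681 tested genes with at most 3 counts in every untreated library, and 111 of them rose. These had to be read in OHT-treated or other cells to be tested at all, so their share is a description. In 60 of the 111 no read was counted in any untreated library, and 84 of the 111 were also called higher after OHT in Y48E cells and 0 in WT cells. Over all 18791 genes tested, 2030 were called higher in Y48E cells and 7 in WT cells. When only the line's 6 libraries were fitted, 89 of the 111 lost the call.

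**Figure D2:**
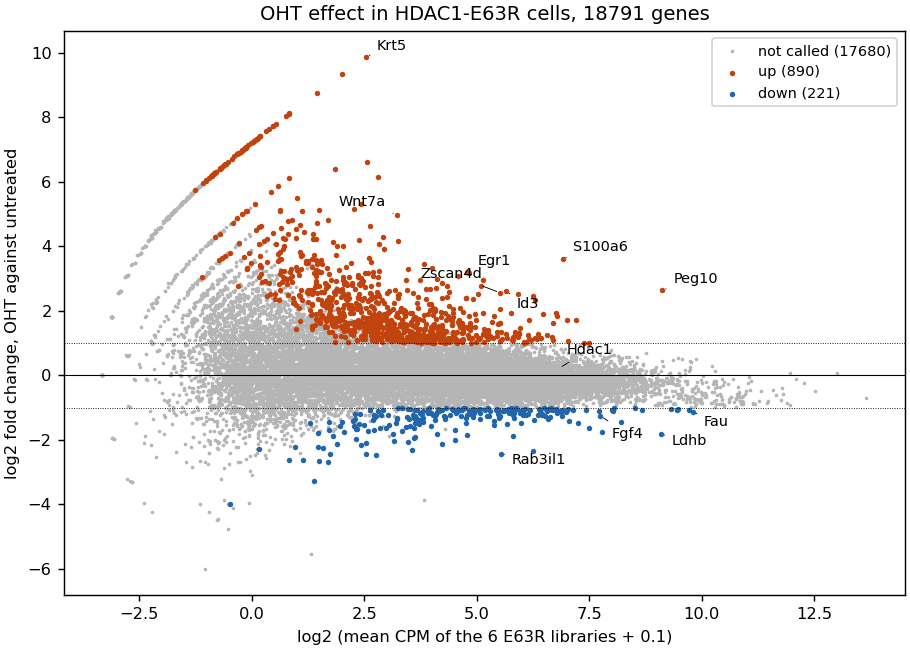
Each point is 1 of 18791 genes, with the mean log2 CPM of the 6 E63R libraries on the horizontal axis and the log2 fold change of OHT against untreated on the vertical axis. The 890 risen DEGs lie mostly at low and middle levels and the 221 fallen DEGs at middle and high levels.

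Ranked by fitted log2 fold change, genes with no reads before treatment came first. For these the fitted value depends on the prior count of the fit, so bounds are given in its place. Krt5 (chr15:101707070-101712898, mm10), a keratin of the basal layer of stratified epithelia, had 0 counts in the 3 untreated libraries and 147, 122 and 107 counts after OHT. Akr1cl (chr1:65012689-65032759), an aldo-keto reductase family member, went from 0 CPM in each untreated library to 6.87, 9.72 and 6.95 CPM. Slc6a12, a transporter of betaine and GABA, went from 0 to 6.13, 4.57 and 5.18 CPM. With a floor of 3 counts per untreated library, Krt5 rose at least 35.7-fold, Akr1cl at least 24.5-fold and Slc6a12 at least 16.6-fold (adjusted p = 6.24e-08, 6.24e-08 and 2.80e-07). Over the risen genes with no untreated reads these bounds ran from 1.99 to 35.7 with a median of 4.70, and they cover counting error only.

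Promoter sequence was set beside these values for 3 genes that went from no reads to a called rise (Krt5, Akr1cl and Slc6a12), for 2 strong risers that were read before treatment (Id3 and Htra1) and for Fgf4, which fell. The 250 bases before the RefSeq start are printed 5′ to 3′ on the gene's strand, build GRCm38.p6, with capitals marking motifs searched on both strands, overlapping matches included: the TATA box as TATAAA, then the GC box, written GGGCGG, and the promoter element CCAAT bound by nuclear factor Y. Krt5 lies at chr15:101712906-101713155 (minus strand), Akr1cl at chr1:65032760-65033009 (minus), Slc6a12 at chr6:121342324-121342573 (plus, the first of 5 listed starts), Id3 at chr4:136143572-136143821 (plus), Htra1 at chr7:130935953-130936202 (plus) and Fgf4 at chr7:144861136-144861385 (plus).
Krt5: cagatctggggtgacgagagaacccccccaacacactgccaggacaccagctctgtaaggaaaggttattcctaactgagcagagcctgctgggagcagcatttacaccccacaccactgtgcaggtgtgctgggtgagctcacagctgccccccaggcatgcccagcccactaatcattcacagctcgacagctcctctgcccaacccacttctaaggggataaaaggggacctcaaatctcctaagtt
Akr1cl: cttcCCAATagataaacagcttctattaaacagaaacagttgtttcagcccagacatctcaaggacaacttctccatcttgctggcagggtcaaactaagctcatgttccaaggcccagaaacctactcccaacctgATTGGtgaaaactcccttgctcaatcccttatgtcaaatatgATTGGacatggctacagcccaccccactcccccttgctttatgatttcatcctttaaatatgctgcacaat
Slc6a12: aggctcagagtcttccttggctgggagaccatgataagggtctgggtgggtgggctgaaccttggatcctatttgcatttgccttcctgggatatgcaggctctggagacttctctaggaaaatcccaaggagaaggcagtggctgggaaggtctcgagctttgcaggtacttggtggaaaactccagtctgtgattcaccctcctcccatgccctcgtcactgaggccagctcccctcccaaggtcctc
Id3: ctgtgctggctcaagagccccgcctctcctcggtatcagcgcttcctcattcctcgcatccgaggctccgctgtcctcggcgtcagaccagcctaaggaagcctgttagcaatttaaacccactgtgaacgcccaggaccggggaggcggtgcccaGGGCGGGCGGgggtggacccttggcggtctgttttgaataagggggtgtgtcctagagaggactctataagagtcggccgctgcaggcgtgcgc
Htra1: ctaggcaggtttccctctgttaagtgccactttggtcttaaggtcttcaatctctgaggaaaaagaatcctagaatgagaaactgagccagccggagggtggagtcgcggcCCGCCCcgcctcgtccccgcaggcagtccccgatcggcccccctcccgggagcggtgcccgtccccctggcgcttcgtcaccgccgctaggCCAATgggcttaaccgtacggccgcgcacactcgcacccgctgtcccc
Fgf4: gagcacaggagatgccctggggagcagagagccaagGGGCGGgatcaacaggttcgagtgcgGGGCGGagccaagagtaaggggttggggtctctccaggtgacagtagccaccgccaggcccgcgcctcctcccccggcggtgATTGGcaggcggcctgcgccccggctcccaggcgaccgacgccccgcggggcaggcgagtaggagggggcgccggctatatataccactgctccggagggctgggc

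The first 3 hold 2, 0 and 2 CpG dinucleotides, whereas Id3, Htra1 and Fgf4 hold 18, 22 and 21. The TATA box motif was in none of the 6 windows and the CCAAT motif 3 times in that of Akr1cl, which describes these letters only. Over 300-base windows (250 before to 50 after the start) a promoter was listed for 12440 of the 18791 tested genes. The median observed-to-expected CpG ratio was 0.729 over those, 0.573 over 612 risen and 0.684 over 160 fallen DEGs, and 0.291 over 73 of the risen genes at the floor in untreated cells. All 391 tested genes at that floor with a promoter had a median of 0.326, near the value for those that rose. The TATA box motif was in 12.4% of promoters of risen DEGs, 9.38% of fallen, 7.23% of all tested genes and 13.6% of all 32851 promoters in the table. The GC box motif was in 57.2%, 63.8%, 61.4% and 35.7%, and the CCAAT motif in 40.5%, 39.4%, 38.8% and 37.4% of the same sets.

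Most of the listed keratins and epithelial genes, structural proteins of surface and glandular epithelia, rose. The list was chosen with earlier results of these data known, and the paper had reported de-repression of Krt5, Krt14, Krtdap and Krt8. The count therefore describes this list and is no test of it. Of 21 tested, 13 rose and none fell, with a median log2 fold change of 1.73, or 1.71 with genes that had no untreated reads set at their bound. Krt8, the keratin of simple epithelia and of the first trophectoderm cells, was at 62.8, 66.8 and 77.2 CPM and rose to 209, 233 and 234 CPM (log2 fold change 1.71, SE 0.11, adjusted p = 1.03e-09). Its partner Krt18 was at 39.3, 43.1 and 77.7 CPM and then 113, 124 and 119 CPM, and Krt19 at 34.8, 41.7 and 75.3 CPM and then 153, 164 and 150 CPM. For each of the 3 genes every treated library was above every untreated one, and untreated replicate 3 was the highest of the untreated, so the rise was larger without it (1.80, 1.53 and 2.03 on the log2 scale). Krt18 lost its call without untreated replicate 1 and in a fit of the line's 6 libraries alone.

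Keratins of stratified epithelium were almost unread before treatment. Krt14, the usual partner of Krt5, had 0.277, 0 and 0 CPM untreated and 10.8, 12.9 and 10.7 CPM after OHT, a ratio of 108 (95% interval 36.8 to 528 from the counts). Krtdap, a keratinocyte differentiation gene, went from 0.739, 0.452 and 1.14 CPM to 10.2, 14.7 and 14.8 CPM (log2 fold change 4.07, SE 0.47). The epithelial cell cycle regulator Sfn went from 42.8, 37.5 and 64.4 CPM to 171, 186 and 162 CPM, and the desmosomal p53 target Perp from 41.7, 42.9 and 59.2 CPM to 110, 128 and 111 CPM. Krt17 (log2 fold change 1.30) kept its call without any 1 library, whereas Krt6a, Krt20, Krt80 and Sprr1a, at or below 5.87 CPM in each library, lost theirs without several. The list count was 11 without untreated replicate 3 and 8 without untreated replicate 1. Reads of Krt8, Krt6a, Krt80 and Sfn may be shared with near-identical copies elsewhere in the genome.

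Calcium-binding S100 proteins, annexins and galectins often accompany epithelial genes. In this list 5 of 18 rose and none fell (median 0.58). S100a6 was at 12.4, 12.4 and 29.6 CPM and rose to 215, 216 and 235 CPM (log2 fold change 3.62, SE 0.23, adjusted p = 1.03e-09). The untreated replicate 3 value was more than 2-fold above its companions, and without it the log2 fold change was 4.16. Anxa1, a phospholipid-binding regulator of inflammation, rose from 4.07, 4.18 and 3.55 CPM to 20.3, 29.3 and 25.8 CPM, and S100a14, Anxa3 and Lgals3 rose by 4.00, 1.33 and 1.40 on the log2 scale. Of 31 junction and adhesion genes 2 rose, Dsc2 (1.33), which encodes a desmosomal cadherin, and Cldn23, a claudin with no untreated reads that lost its call without untreated replicate 1 or OHT replicate 1.

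Many trophoblast genes, which mark the lineage of the placenta, also rose. Of 25 tested, 10 rose and 1 fell (median 0.95, or 0.91 with unread genes at their bound). By adjusted p alone 14 were higher and 2 lower, Ascl2 and Elf3 (-0.57). The transcription factor genes Cdx2 (-0.36), Tfap2a (-0.52) and Gata2 (-0.14) did not pass the test. Hand1, a transcription factor of giant cells, was at 2.68, 3.39 and 2.52 CPM and rose to 23.9, 32.3 and 30.7 CPM (log2 fold change 3.34, SE 0.27, adjusted p = 1.80e-08). Wnt7b, a placental WNT ligand, went from 9.52, 10.5 and 6.06 CPM to 54.7, 59.5 and 65.2 CPM (2.78, SE 0.25). Gata3, which specifies trophectoderm with Cdx2, went from 1.39, 0.565 and 0.915 CPM to 7.95, 3.43 and 6.95 CPM (2.64, SE 0.45). The groups did not overlap for any of the 3.

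Further trophoblast members rose by less. Plet1 and the X-linked homeobox genes Rhox6, Rhox9 and Esx1 rose by 1.56, 1.57, 1.23 and 1.05, and Fgfr2, the receptor through which FGF4 maintains trophoblast stem cells, from 5.36, 7.45 and 6.52 CPM to 26.0, 31.4 and 20.8 CPM. Ascl2, needed for the spongiotrophoblast, was the member that fell (11.3 to 29.6 CPM untreated, highest in replicate 3, and 5.71, 6.10 and 9.68 CPM after OHT), and it lost the call without untreated replicate 3 (-0.74). Rhox9 lost its call without untreated replicate 1, and Esx1 without untreated replicate 1 or 2 or OHT replicate 2. Ascl2 also lost it without OHT replicate 1 or 2, and the count of risen members was 12 without untreated replicate 3.

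Imprinted genes, expressed from a single parental allele, overlapped that list in part. Of 38 tested, 9 rose and 2 fell (median 0.47). Peg10, a retrotransposon-derived gene needed for the placenta, was at 158, 206 and 98.5 CPM and rose to 1011, 926 and 954 CPM (log2 fold change 2.64, SE 0.17, adjusted p = 1.03e-09). H19, a maternally expressed long RNA, rose from 10.6, 11.2 and 6.98 CPM to 58.2, 54.9 and 53.3 CPM, and the zinc finger gene Plagl1 from 3.88, 4.86 and 4.80 CPM to 32.0, 27.2 and 29.2 CPM (2.71, SE 0.20). Nnat (neuronatin) went from 15.0, 16.7 and 21.7 CPM to 97.8, 103 and 106 CPM. At the Dlk1-Dio3 domain of chromosome 12 the non-coding Rian and Mirg and the deiodinase Dio3 rose by 1.54, 2.76 and 1.55.

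The maternally expressed cyclin-dependent kinase inhibitor Cdkn1c rose from 46.0, 53.5 and 68.9 CPM to 115, 148 and 136 CPM, while Kcnq1ot1, the antisense RNA of the same cluster, fell from 20.5, 32.6 and 5.38 CPM to 3.31, 5.05 and 3.42 CPM (-2.31, SE 0.43, adjusted p = 0.000403). Untreated replicate 3 was the lowest untreated value of Kcnq1ot1 by a wide margin, and the change without it was -2.76. Antisense transcripts overlap 30.7% of the exon bases of Cdkn1c, and the strand setting of the counting is not given in the sources used here. Zdbf2 (1.23) lost its call without untreated replicate 3 (0.99), and the other fallen imprinted gene was Ascl2.

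Genes of the 2-cell embryo, a totipotent-like programme that ESCs enter now and then, rose in a large proportion. Their share of 64.7% was just above the 61.9% of the keratin list. It counts each Zscan4 and Usp17l copy as a separate member, so the order of these 2 lists depends on that counting. Of 17 tested, 11 rose and none fell (median 1.60, and 1.75 without untreated replicate 3, with the same count). Zscan4d was at 11.8, 9.26 and 18.8 CPM and rose to 76.2, 73.5 and 84.9 CPM (log2 fold change 2.56, SE 0.23, adjusted p = 7.67e-08). Zscan4c, Zscan4e and Zscan4f rose by 1.48, 1.98 and 2.66. Zscan4 genes guard telomeres, and their transcripts are 97% to 98% identical to each other over their length, so reads cannot be assigned to single copies and the family is better read as a whole.

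Usp17le, a deubiquitinase of the same programme, was at 5.18, 5.20 and 5.15 CPM and then 38.7, 36.0 and 30.3 CPM. Usp17la, Usp17ld and the spermatogenic bHLH gene Spz1 rose by 2.23, 1.39 and 2.86. The transcript of Usp17ld is 97.8% identical to that of Usp17lc over its length, so its reads may be shared. Zscan4b, Zfp352 and the arginase Arg2, all at or below 10.2 CPM, were called with all libraries but lost the call without several single ones. The summed level of the 17 genes was 106, 111 and 125 CPM untreated and 351, 360 and 363 CPM after OHT, with no overlap.

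Germline and meiosis genes, often silenced by DNA methylation in somatic and ES cells, rose in 7 cases and fell in 1 of 28 (median 0.45). Stra8, the retinoic-acid-induced gatekeeper of meiosis, went from a mean of 15.2 ± 3.37 CPM (SD, n = 3) to 45.2, 43.4 and 41.0 CPM, each above every untreated library (log2 fold change 1.51, SE 0.15, adjusted p = 2.51e-07). Tex19.1, which restrains retrotransposons, went from 30.8, 30.2 and 37.6 CPM to 93.9, 94.2 and 86.7 CPM, and Tex101, Sycp2, Gtsf1, Sohlh2 and Tuba3b rose by 2.38, 1.85, 2.52, 1.11 and 1.65. Zcwpw1, a reader of histone methylation in meiosis, fell from 61.5, 68.1 and 67.4 CPM to 31.7, 30.9 and 29.9 CPM. Reads of Tuba3b may be shared with its near-identical copy Tuba3a.

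FGF and ERK signalling drives ESCs out of the naive state, with FGF4 as the ligand that ESCs make themselves, FGFR1 and FGFR2 as receptors, and Spry, Dusp, Egr1 and Fos among the genes that respond to ERK. Among 23 tested, 7 rose and 2 fell (median 0.47). Both fallen genes were ligands. Fgf4 was at 311, 283 and 315 CPM and fell to 130, 122 and 128 CPM (log2 fold change -1.26, SE 0.09, adjusted p = 2.51e-09), and Fgf17 went from 16.5, 17.2 and 18.9 CPM to 8.03, 8.58 and 4.598 CPM (-1.30, SE 0.25). Neither group overlapped.

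The 7 that rose were receptors and responsive genes. Egr1, an immediate early transcription factor, was at 6.01, 4.41 and 5.72 CPM and rose to 54.1, 44.5 and 49.5 CPM (log2 fold change 3.19, SE 0.15, adjusted p = 5.91e-12), the smallest adjusted p of any named gene. Dusp4, a phosphatase that switches ERK off, went from 27.5, 23.5 and 18.8 CPM to 117, 135 and 133 CPM (2.46, SE 0.19). The feedback inhibitors Spry4 and Dusp6 and the receptor Fgfr3 rose by 1.33, 1.16 and 1.25, and Phlda1 by 1.81. Fos, listed with the LIF and STAT3 genes, rose by 1.22 and was the sole DEG of the 20 in that list. Antisense transcripts overlap 33.0% of the exon bases of Phlda1.

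Genes of the naive ground state fell in 2 of 26 cases and rose in none by the DEG limits, with 8 lower and 3 higher by adjusted p alone and a median of -0.23. The 2 were Fgf4 and Klf2, a pluripotency factor, which was at 226, 227 and 408 CPM and then 130, 143 and 126 CPM. The Klf2 call (-1.11) rested on untreated replicate 3 and was lost without it (-0.77), which left 1 fallen member, and 4 members fell without untreated replicate 2. The other members lower by adjusted p alone were Prdm14 (-0.91), Utf1 (-0.81), Dppa5a (-0.80), Pou5f1 (-0.75), Tcl1 (-0.63) and Esrrb (-0.40). Higher were Dppa2 (0.71), Klf5 (0.68) and Klf4 (0.55). Among formative and primed genes 2 of 13 rose. Otx2, a driver of the formative state, went from 1.57, 0.565 and 1.60 CPM to 8.53, 4.67 and 7.92 CPM (2.47, SE 0.36, adjusted p = 2.82e-05), and the de novo methyltransferase Dnmt3a from 138, 126 and 92.9 CPM to 241, 243 and 234 CPM. Dnmt3a (1.01) lost its call without untreated replicate 3 (0.86) or OHT replicate 2 and once the length trend was removed (0.66).

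BMP signalling cooperates with LIF in ESCs through the Id proteins, dominant-negative helix-loop-helix factors. In this list 3 of 22 rose (13.6%, beside 4.74% over all genes) and none fell (median 0.18). Id3 was at 10.9, 14.2 and 17.4 CPM and rose to 79.4, 84.5 and 93.3 CPM (log2 fold change 2.60, SE 0.16, adjusted p = 7.39e-10), and Id1 went from 44.9, 48.7 and 88.3 CPM to 188, 217 and 186 CPM (1.70, SE 0.17). The homeobox gene Msx2 rose by 2.36 from at most 1.20 CPM and lost the call without OHT replicate 2 or 3. Without untreated replicate 3, 5 members rose.

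WNT ligands, their Frizzled receptors and the nuclear TCF factors were tested as 37 genes, of which 6 rose and 1 fell (median 0.16). Of the risen, 3 were ligands. Wnt7b is given above, Wnt7a went from 1.11, 0.452 and 0 CPM to 13.1, 18.6 and 22.0 CPM (4.98, SE 0.60, adjusted p = 5.19e-06) and Wnt4 from 2.59, 0.339 and 1.37 CPM to a mean of 12.4 ± 0.538 CPM (SD, n = 3). The receptor Fzd6 rose by 1.77 while Fzd7, the receptor most used by ESCs, went from 141, 146 and 113 CPM to 69.5, 60.7 and 62.6 CPM (-1.06, SE 0.12). Fzd7 lost its call without untreated replicate 2, the antagonist Nkd2 (1.10) without OHT replicate 3, and Tcf7l2 (1.21) without any of 5 libraries.

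Extracellular matrix and integrin genes rose in 12 of 38 cases and fell in none (median 0.63). Htra1, a secreted protease outside that list but among the genes with the smallest adjusted p, was at 6.65, 8.25 and 8.92 CPM and rose to 55.5, 65.6 and 65.2 CPM (log2 fold change 2.97, SE 0.18, adjusted p = 7.39e-10). Itga7, a laminin receptor, went from 2.40, 2.60 and 2.06 CPM to 26.4, 23.8 and 27.9 CPM (3.46, SE 0.47). Lama3, a chain of an epithelial laminin, rose by 1.60, and the fibrillar collagens Col1a1 and Col5a1 by 2.49 and 1.66. The basement membrane collagens Col4a1 and Col4a2 were at 68.5, 86.0 and 45.3 CPM and 36.2, 40.9 and 25.6 CPM, rising to 141, 143 and 138 CPM and 82.8, 80.5 and 70.4 CPM.

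Many matrix transcripts are long, and untreated replicate 3 was the lowest library for both type IV collagens. Without it 9 of the 38 rose and 1 fell, and Col4a1 went from 1.08 to 0.87, below the limit. With the length trend removed 8 rose and 1 fell, and Col4a2 stood at 0.95. That fit also moved the median of all genes from 0.03 to -0.18. Col6a2 (1.83), Itga1 (3.36), Itga9 (1.03) and Lamb3 (1.19) each lost the call without at least 1 library, Lamb3 without untreated replicate 1. Lamb3 (0.93) and Itga9 (0.78) also lost it with the length trend removed. Primitive endoderm genes shared this dependence: 4 of 17 rose (Col4a1, Col4a2, the endocytic adaptor Dab2 and the cubilin cofactor Amn), 2 without untreated replicate 3 and 1 with the length trend removed.

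Contractile and actin genes rose in 3 of 24 cases (12.5%, beside 4.74% over all genes). These were Acta1 from 2.77, 3.61 and 2.74 CPM to 23.3, 25.7 and 21.6 CPM (2.95, SE 0.35), Myl9 by 1.78, and Actc1 with a ratio of 26.3 (95% interval 8.71 to 130 from the counts). Neural genes rose in 2 of 20 cases (10%, beside the same 4.74%), Nnat and the neurofilament gene Nefm (1.17). Without untreated replicate 3 the neural list gave 3 risen and 1 fallen. Lists of 2 other cell types gave 2 risen genes each. Among fibroblast markers, with 5 of 14 tested, these were Thy1 (1.55) and Col1a1, while Col1a2 (1.04), Pdgfrb (-0.51) and Twist1 (-0.83) were not called. Among 12 endothelial and blood markers (median 0.38) they were the receptor genes Tek (1.83) and Kdr (3.16). Kdr lost its call without untreated replicate 1, OHT replicate 1 or OHT replicate 2. No other tested member of either list passed by adjusted p alone.

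**Figure D3:**
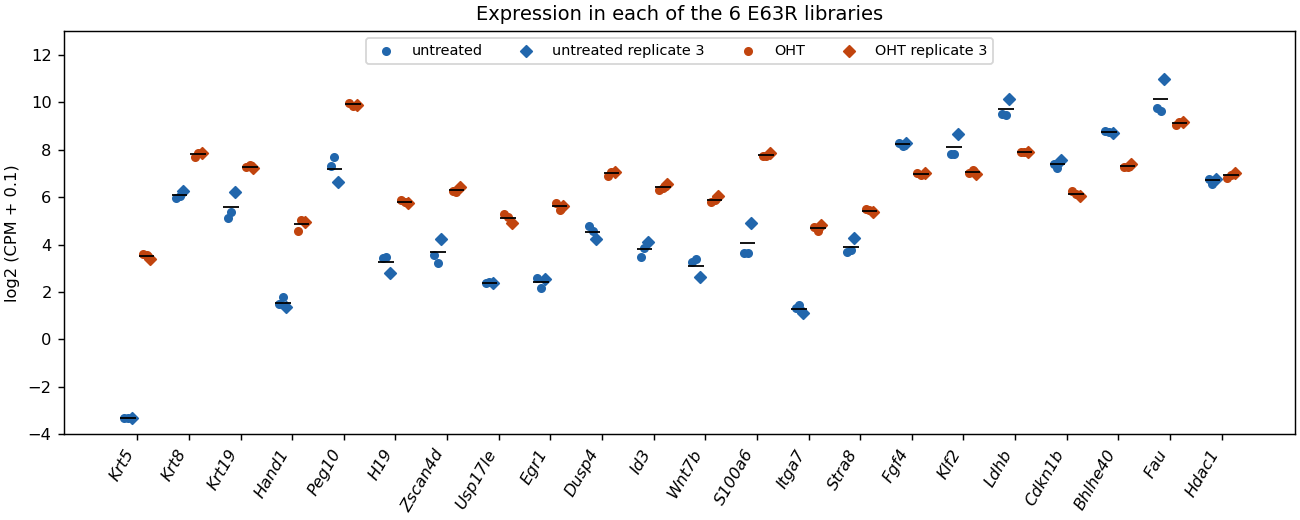
Log2 (CPM + 0.1) in each of the 6 E63R libraries for the genes named on the horizontal axis (blue untreated, red OHT). Circles are replicates 1 and 2, diamonds replicate 3, and lines the mean of 3. Krt5 sits at the bottom of the scale in all 3 untreated libraries, and the untreated diamond stands above its circles for S100a6, Klf2, Ldhb and Fau.

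Fallen genes were mostly at middle and high levels in untreated cells, and a gene with few untreated reads can hardly be called lower. Bhlhe40, a circadian and hypoxia-responsive repressor, was at 450, 433 and 419 CPM and fell to 154, 153 and 168 CPM (log2 fold change -1.46, SE 0.10, adjusted p = 2.51e-09). Rab3il1, an exchange factor for Rab3, went from 82.0, 79.9 and 72.6 CPM to a mean of 14.5 ± 3.88 CPM (SD, n = 3) (-2.43, SE 0.17, adjusted p = 3.00e-09). Pik3ip1, an inhibitor of PI3-kinase, went from 27.3, 28.8 and 34.2 CPM to 5.38, 6.29 and 9.10 CPM. In these 3 genes untreated replicate 3 lay near the other untreated libraries, and the fall without it was -1.48, -2.48 and -2.03.

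Ndrg2 and Msi1 fell by 1.28 and 1.11 on the log2 scale, and the lysosomal genes Hexa and Ifi30 by 1.41 and 1.64. At lower levels the mesoderm transcription factors Mesp2 and Tbx4 fell by 2.44 each, Rasgrp1 by 2.63, Zmynd10, which assembles cilia motors, by 2.48 and the guidance cue Ntn1 by 1.94. Short, highly read genes were another matter. Fau, which encodes a ribosomal protein fused to a ubiquitin-like protein, read 880, 792 and 2028 CPM and then 527, 581 and 574 CPM, so untreated replicate 3 was more than 2-fold above its companions and the change went from -1.14 to -0.58 without it. Gpx4 (-1.05 to -0.67), Apoe (-1.09 to -0.84), Chchd10 (-1.06 to -0.83), Mmp11 (-1.06 to -0.86) and Bnip3 (-1.09 to -0.87) lost their calls in the same way and in no other fit that left out a library. Fau, Gpx4 and Bnip3 also have near-identical copies that can share their reads.

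Glycolysis, on which ESCs rely heavily, was lower by small steps. Of 23 genes 2 passed the DEG limits downward, 13 were lower and none higher by adjusted p alone, and the median was -0.49. Over all genes 1.18% were fallen DEGs and 6.82% were lower by adjusted p alone. Ldhb, a lactate dehydrogenase subunit, was at 724, 716 and 1118 CPM and fell to 242, 238 and 241 CPM (-1.83, SE 0.14, adjusted p = 8.80e-09; -1.58 without untreated replicate 3). Gpi1, which isomerizes glucose phosphate, went from 1912, 1888 and 1874 CPM to 1008, 996 and 1007 CPM, with every treated library below every untreated one, but at -0.91 (adjusted p = 6.24e-08) stayed inside the 2-fold limit. Aldoc went from 132, 121 and 137 CPM to 68.4, 60.7 and 61.2 CPM and lost the call without untreated replicate 3 (-0.99) or OHT replicate 2. Summed over the 23 genes the untreated libraries held 29339, 28487 and 33089.6 CPM and the OHT libraries 21117, 21227 and 20839 CPM, and without untreated replicate 3, 16 of the 23 were lower by adjusted p. Amino acid and one-carbon genes gave 1 fallen gene of 24, the glutamine transporter Slc1a5 (-1.01), which lost the call without untreated replicate 1 or 2 or OHT replicate 3. Cholesterol synthesis gave 0 DEGs of 24 with 5 lower by adjusted p alone, beside the same 6.82%.

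Brakes on proliferation and p53 targets moved in both directions: 3 of 26 rose and 5 fell. Cdkn1b, the p27 inhibitor of cyclin-dependent kinases, was at 167, 152 and 187 CPM and fell to 75.7, 70.3 and 65.6 CPM (-1.26, SE 0.10, adjusted p = 1.58e-08), whereas Cdkn1c rose as given above and Cdkn2a, a tumour suppressor locus, rose by 1.02. The stress gene Gadd45b went from 100, 93.3 and 142 CPM to 45.0, 37.8 and 45.5 CPM (-1.38) and Gadd45g, another of the family, from 8.50, 12.7 and 36.7 CPM to 4.22, 5.24 and 5.97 CPM, with a change of -1.04 without untreated replicate 3. The p53-induced killers Bbc3 (Puma) and Pmaip1 (Noxa) fell by 1.07 and 1.08 but missed the 2-fold limit without replicate 3 (-0.93 and -0.94). Cdkn2a lost its call without untreated replicate 1 or 2 or OHT replicate 1 or 3. Cell cycle and replication genes gave 0 DEGs of 30, with 7 lower by adjusted p alone, beside 6.82% lower over all genes.

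Genes for the HDAC1 complexes themselves gave 1 DEG. Of 16 NuRD genes none was a DEG (median -0.18). By adjusted p alone 3 were lower, Mta3, Rbbp4 and Zfp219, beside 6.82% lower over all genes. That number was 7 without untreated replicate 3. It was 8 with the length trend removed, a fit that moved the median of all genes from 0.03 to -0.18. Of 22 genes for CoREST, MiDAC, MIER and RERE none was a DEG, with 1 higher and 1 lower by adjusted p alone, Ctbp2 and Gse1 (0.74 and -0.51). There 7 were lower without untreated replicate 3 and 9 with the length trend removed. Among 23 class I HDAC and SIN3 genes the SIN3 subunit Sap30 was the only DEG, at 150, 139 and 286 CPM and then 93.4, 92.1 and 84.3 CPM, and its call (-1.09) was lost without untreated replicate 3 (-0.69). Histone acetyltransferases gave 0 of 15, with 1 lower by adjusted p alone, or 4 in either of those fits.

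Other chromatin lists held few DEGs. Polycomb genes gave 1 DEG of 29, Ezh1 (-1.02), which was lost without any of 4 libraries, DNA methylation genes 1 of 19 (Dnmt3a), and linker and variant histones 0 of 20, or 3 risen without untreated replicate 3. Developmental lists with no DEG were Hox (18 tested), mesendoderm and streak (10) and clustered protocadherins (15 of 58 listed), but 1 protocadherin fell without untreated replicate 3, and 1 Hox gene and 1 protocadherin fell with the length trend removed. These counts cover the listed genes with enough reads, and a gene below 2-fold may still have changed.

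**Figure D4:**
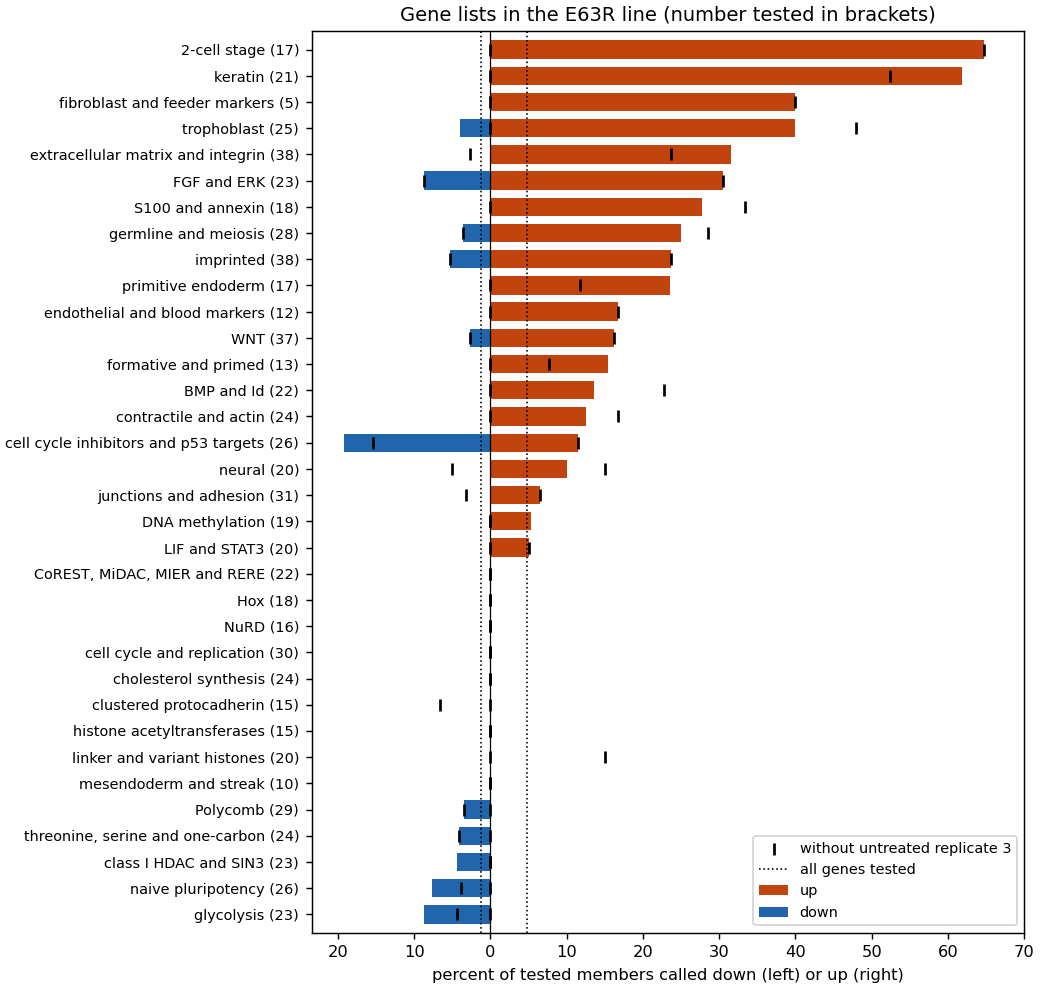
For each gene list, the percentage of tested genes that rose (bars to the right) and fell (bars to the left) at the DEG limits in E63R cells, with the number tested in brackets, dotted lines at the share over all genes and ticks at the share without untreated replicate 3. The 2-cell (64.7%) and keratin (61.9%) lists lie farthest to the right, followed by the trophoblast and the fibroblast and feeder lists (40.0% each, the latter with 5 genes tested), beside 4.74% over all genes. Lists were chosen with earlier results of these data known, so these shares are descriptions.

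Against the WT rescue, in which 7 genes rose and 3 fell, the E63R response was tested as a difference of effects. In 316 genes (1.68%) the OHT effect differed between the lines by more than 2-fold at an adjusted p under 0.01, higher in E63R for 234 and lower for 82. Of the 316, 215 were risen and 61 fallen E63R DEGs. Egr1 differed by 2.60 on the log2 scale, Hand1 by 3.47, Htra1 by 2.65, Peg10 by 2.57 and Id3 by 1.89. Downward, Rab3il1 differed by -1.82, Bhlhe40 by -1.42 and Fgf4 by -1.02. For Zscan4e and Zscan4f the differences of 5.89 and 5.56 exceed the E63R effects of 1.98 and 2.66. The WT values were -3.91 and -2.90, and neither passed the test (adjusted p = 0.063 and 0.14).

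For some E63R DEGs the WT value was of like size. Tex101 rose by 2.95 in WT cells and 2.38 in E63R cells (difference -0.57, adjusted p = 0.61), and Zcwpw1 changed by -1.10 and -1.09 (difference 0.02, adjusted p = 0.98). Wnt7a stood at 4.55 in WT cells, which did not pass the test there (adjusted p = 0.45), and rose by 4.98 in E63R cells (difference 0.43, adjusted p = 0.85). A p that misses the threshold does not show equality, and these genes are named after their values were seen. Without untreated replicate 3, 486 genes differed from WT, 284 of them among the 316. The count was 206 without untreated replicate 1 of the WT line and 209 without OHT replicate 2 of the E63R line.

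The Y48E line carries another surface mutant of HDAC1 and shares no library with the E63R comparison. Of all 18791 genes tested, 2030 rose and 1097 fell in Y48E cells. Genes called higher in both numbered 720, which is 80.9% of the 890 of E63R and 35.5% of the 2030 of Y48E. Genes called lower in both numbered 160, which is 72.4% of 221 and 14.6% of 1097. Over the E63R DEGs the median log2 effect was 1.83 in E63R and 2.19 in Y48E for the risen, and -1.24 and -1.50 for the fallen, with 0.26 and -0.20 in WT. Gm13889 and Lipg were the 2 genes called in opposite directions, named because they are the only ones. Lipg, an endothelial lipase, rose in E63R from 4.34, 3.73 and 3.20 CPM to 11.7, 8.19 and 7.04 CPM while its effect in Y48E was -1.14.

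The OHT effect differed between the 2 mutants in 246 genes (1.31%), 186 with the E63R effect above the Y48E effect and 60 below. Of the 186, 160 were called lower in Y48E and 179 of the 246 were not E63R DEGs, so most of the differences were in genes that fell in Y48E cells. Egr1 rose by 3.19 in E63R and by 0.32 in Y48E (difference 2.87, SE 0.19, adjusted p = 9.45e-09). Otx2 (2.47 and -0.28), Dusp4 (2.46 and 0.89) and Zmat4 (3.18 and 0.62) also rose more in E63R. Krt8 (1.71 and 3.72), Krt18 (1.16 and 3.43), Id1 (1.70 and 3.36), Id3 (2.60 and 4.53), Cdkn1c (1.25 and 2.79) and Ly6a (3.00 and 6.13) rose less. Fgf4 fell by 1.26 in E63R cells and by 3.06 in Y48E cells, Ldhb by 1.83 and 3.47 and Klf2 by 1.11 and 2.47, each with a tested difference above 1.

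Gadd45b went the other way, with -1.38 in E63R cells and -0.12 in Y48E cells (difference -1.27, adjusted p = 0.001). For Zscan4d, Usp17le, Hand1 and H19 the differences between the mutant lines, 0.28, 0.27, 0.07 and 0.21 on the log2 scale, did not pass the test. Without untreated replicate 3, 465 genes differed between the mutants, 221 of them among the 246.

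**Figure D5:**
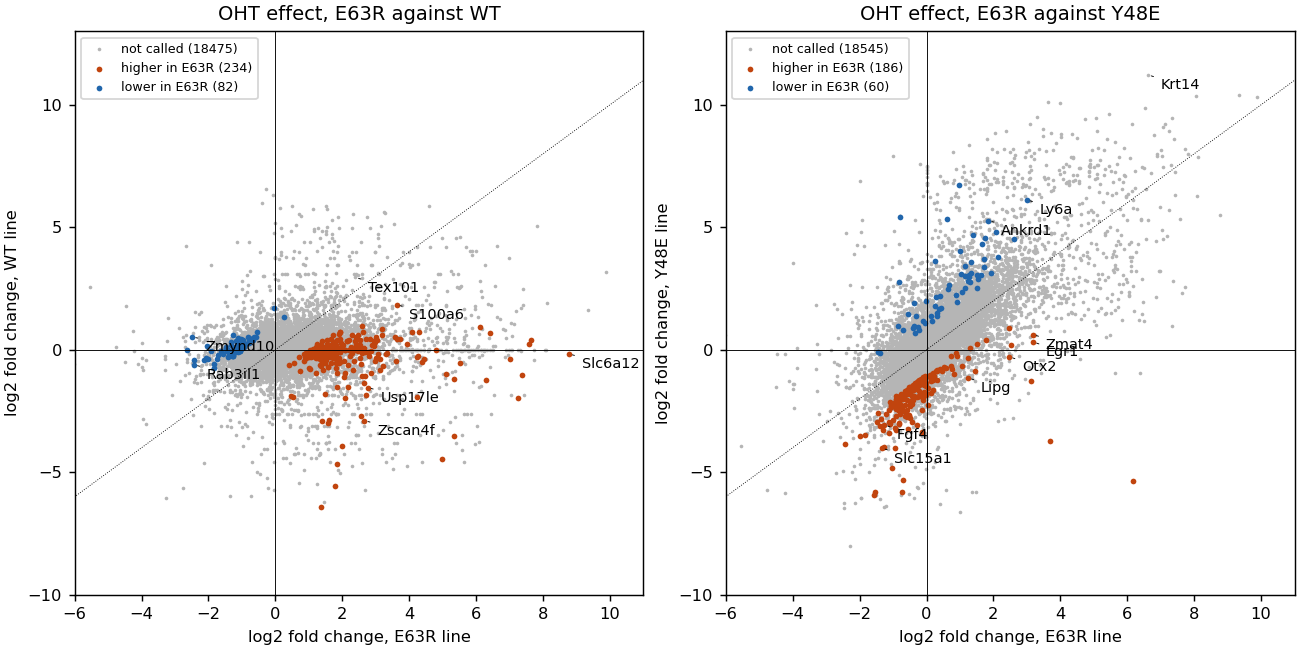
Log2 fold change of OHT against untreated in E63R cells (horizontal) against the WT line (left panel) and the Y48E line (right panel), with genes whose effect differs between the lines coloured, red where it is higher in E63R (234 and 186 genes) and blue where it is lower (82 and 60). The coloured genes lie mostly along 0 of the WT axis on the left, and most red genes lie below 0 of the Y48E axis on the right.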

How the data were processed

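Gene counts per library, as deposited, were made by the authors with HISAT2 2.1.0, SAMtools 1.9 and HTSeq (submitters' processing notes) on mm10 from paired NovaSeq reads. The strand setting and multi-mapping rule are not given in the sources used here. The 5 HTSeq entries that name no gene (59.4% to 60.3% of entries in E63R libraries, most of them without a feature) were left out. E63R libraries held 9075739 to 11454638 gene counts, so 3 counts, the floor used for bounds, are 0.262 to 0.331 CPM. Intervals and floors cover counting error only.

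Counts were tested with edgeR 4.0.16 (R 4.3.3) by quasi-likelihood with TMM factors, filterByExpr and a mean for each of the 6 groups over 18 libraries, with Benjamini-Hochberg adjustment over 18791 genes. Genes were called at an adjusted p below 0.01 with a change of more than 1 on the log2 scale. Differences between lines are interaction contrasts of the same fit. The fit was tested on simulated data. CPM were computed from gene totals scaled by TMM, except those of the cell type markers and of the 3-count floor, which used unscaled totals. Genes were named by a rule: DEGs without overlap and with at least 1 CPM (1040 of 1111, or 917 without predicted and Riken symbols) by largest change, smallest adjusted p and level, list members, and the largest differences between lines. Members and lists were chosen with earlier results of these data known. Positions come from GENCODE M21, promoters from RefSeq, and copies from blastn 2.17.0 (at least 95% identity over 150 bases, found for 23 of 164 named genes). Alternatives were RLE factors, no filter, DESeq2 1.42.0, glmTreat, a replicate block, the line alone, each library left out and, chosen after seeing the data, an exon length correction and the line alone without untreated replicate 3.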

Additional observations from a re-analysis of the deposited data

Results flagged for a closer look

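Effects of OHT that differed between lines, by the interaction contrasts of the same edgeR fit, are given here as log2 differences. The E63R effect differed from the WT effect in 316 genes and from the Y48E effect in 246. The largest differences among genes whose E63R groups did not overlap are listed in each direction. All were tested across 18791 genes with Benjamini-Hochberg adjustment.

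Against WT the E63R effect was higher for Slc6a12 by 8.95 (SE 1.12, adjusted p = 5.34e-05), Rapgef4 by 8.39 (adjusted p = 0.00105), Zscan4-ps2 by 7.36 (adjusted p = 3.81e-05), Aspa by 7.33 (adjusted p = 0.00752), Nxf3 by 7.24 (adjusted p = 0.000344) and Ankrd1 by 6.52 (adjusted p = 0.000742). Slc6a12, Rapgef4, Aspa and Nxf3 had no reads in untreated E63R cells, so these fitted values depend on the prior count and are no bounds. For Zscan4-ps2 and Ankrd1 the WT effect was -5.57 and -4.67 while the E63R effect was 1.79 and 1.85, and neither WT value passed the test (adjusted p = 0.014 and 0.048). The E63R effect was lower than in WT for Zmynd10 at -3.01 (adjusted p = 0.00421), Rasgrp1 at -2.63 (adjusted p = 0.00646), Tbx4 at -2.01 (adjusted p = 0.00671), Kcnip2 at -1.89 (adjusted p = 0.00113), Ntn1 at -1.87 (adjusted p = 0.00919) and Rab3il1 at -1.82 (adjusted p = 5.51e-05).

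Against Y48E the E63R effect was higher for Mir124a-1hg by 4.36 (adjusted p = 0.00128), Egr1 by 2.87 (SE 0.19, adjusted p = 9.45e-09), Otx2 by 2.76 (adjusted p = 0.000711), the peptide transporter gene Slc15a1 by 2.68 (adjusted p = 7.44e-06), Zmat4 by 2.56 (adjusted p = 0.00426) and Lipg by 2.39 (adjusted p = 0.00081). Mir124a-1hg and Slc15a1 fell in both mutant lines, with E63R effects of -1.57 and -1.34 and Y48E effects of -5.94 and -4.02. It was lower for Ankrd1 at -3.42 (adjusted p = 0.00965), Tex13b at -3.32 (adjusted p = 7.9e-05), Ly6a at -3.13 (adjusted p = 0.000114), Tslrn1 at -2.81 (adjusted p = 0.00288), the iodide transporter gene Slc5a5 at -2.73 (adjusted p = 5.33e-05) and Tuba3b at -2.66 (adjusted p = 0.000726). Each of these 6 rose in E63R cells with all libraries and had a larger rise in Y48E cells. The E63R call of Ankrd1 was kept without untreated replicate 2 but lost without any other single library of the line and with the length trend removed. That of Tex13b was lost without OHT replicate 1 and that of Tslrn1 without untreated replicate 1.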

How the results depend on the processing

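Genes with no untreated reads have fold changes known only as bounds. Those with at most 3 counts in each untreated library have them only within wide intervals. With an adjusted p of 0.05 the counts were 1413 risen, 594 different from WT and 491 different from Y48E. From the 6 E63R libraries alone 298 genes rose and 90 fell, and from those libraries without untreated replicate 3, 1088 and 231. Testing against a 2-fold change (glmTreat) left 179 and 11. With the exon length trend removed 558 fell. Without the filter on low counts 530 genes differed from WT and 419 from Y48E, and by DESeq2 490 differed from WT. Leaving out a library gave 681 to 919 risen, 186 to 355 fallen (355 without untreated replicate 2), 206 to 486 different from WT (206 without WT untreated replicate 1, 209 without E63R OHT replicate 2, 486 without E63R untreated replicate 3) and 184 to 465 different from Y48E (465 without E63R untreated replicate 3). The cause was not tested. RLE factors gave 884 risen and 227 fallen.

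Deviations of same-numbered untreated and OHT libraries had correlations of 0.12, -0.06 and 0.12. Untreated replicates 1 and 3 correlated best with the OHT library of the same number, and untreated replicate 2 with OHT replicate 1 (0.17). Untreated replicate 3 deviates most and is part of the mean that each untreated library is set against. The correlations therefore cannot decide whether the numbers are pairs, and the main fit did not treat them as pairs. With a replicate block 804 genes rose, 184 fell, 258 differed from WT and 236 from Y48E. Of 164 named genes 14 lost their call under the block, 1 (Ehd1) under RLE factors or DESeq2, 17 with the length trend removed, and 10 to 28 without a single library, 28 without untreated replicate 3. With only the line's 6 libraries fitted, 65 of the 161 still tested lost it. None of the 164 changed direction in these fits.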

Other observations

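Risen genes were not spread evenly over chromosomes and gene classes. On the X chromosome 54 of 678 tested genes rose (7.96%) and on chromosome 15, which carries Krt5 and Krt8, 50 of 659 (7.59%), beside 4.74% over all genes and 3.26% on chromosome 17. Without untreated replicate 3 the X chromosome count was 61. Besides the Rhox genes and Esx1 the X-linked genes included Amot, a Hippo pathway scaffold, at 3.70, 5.08 and 3.32 CPM untreated and 19.7, 20.4 and 24.6 CPM after OHT, and Bgn, a matrix proteoglycan, at 2.50, 3.28 and 3.09 CPM and then 12.3, 9.81 and 11.3 CPM. The groups did not overlap in either, and both genes were chosen after their values were seen.

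Protein-coding genes rose in 788 of 14786 cases (5.33%), processed pseudogenes in 23 of 839 (2.74%) and antisense transcripts in 21 of 1097 (1.91%). Gm4027, one of the genes highest in untreated replicate 3, had 3.23, 2.37 and 11.4 CPM untreated and 19.7, 17.8 and 15.1 CPM after OHT.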
